A study of Zea mays with 12 samples.

Results

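The hybrid Mo17xB73 was compared with B73, its pollen parent, on 3 arrays of developing maize embryos in each group. These are 6 of the 12 one-colour Affymetrix maize arrays in the series. All arrays titled with either name were taken, together with all 17621 probe sets that are not controls, out of 17734 in the table. Mo17xB73 embryos carry 1 genome from Mo17 and 1 from B73, B73 embryos carry B73 alone, and the other 2 groups, the reciprocal hybrid B73xMo17 and the inbred Mo17, have 3 arrays each. In a cross the seed parent is written first by the usual convention, which the labels do not spell out. All plants were grown in a field and their embryos were taken 19 days after pollination. Each replicate number stands for 1 of 3 collection dates, shared by the 4 groups. The labels do not say how many embryos or ears entered a sample, and only 1 field season is described, so the spread between arrays is that between these collections.

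A hybrid embryo receives a full nuclear genome from each parent, while plastids and mitochondria come with the seed parent, and it grows inside an ear of that parent. By the naming convention B73 embryos grew on a B73 ear and Mo17xB73 embryos on a Mo17 ear, so the comparison changes the seed parent's genome, the cytoplasm and the mother plant together. The embryo lies against the endosperm, the storage tissue that feeds it. Endosperm holds more maternal than paternal genomes, makes the zein storage proteins, and takes up sugars from the mother through its basal transfer layer.

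The arrays of the comparison differed in brightness as deposited, and the array medians over the series ran between 192.1 and 313.8 signal units. After quantile normalization the 3 Mo17xB73 arrays correlated with each other at 0.972 to 0.973 over probe sets, the 3 B73 arrays at 0.972 to 0.975, and Mo17xB73 with B73 arrays at 0.954 to 0.96. The embryo genes glb1 (a globulin) and ole1 (an oleosin) lay near the top of the scale in Mo17xB73, at 13.80 ± 0.04 and 13.81 ± 0.05, and in B73, at 13.46 ± 0.28 and 13.82 ± 0.05 (mean log2 signal ± SD, n = 3 each). The zein z1C1_4, an endosperm storage protein gene, was also near the top, at 13.70 ± 0.03 in Mo17xB73 and 13.64 ± 0.01 in B73. The samples labelled embryo thus gave strong signals for endosperm genes in both groups. In such bulk samples, fewer cells of a type and less RNA per cell cannot be told apart.

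In Mo17xB73, 2897 of 17621 probe sets differed from B73 at a limma adjusted p under 0.05, which is 16.4% of those tested. Of these, 1455 were higher in the hybrid (8.26%) and 1442 were lower (8.18%). The counts were nearly even, and the sizes were not. At least 2-fold differences were higher in the hybrid for 520 probe sets and lower for 233. At least 4-fold differences were higher for 248 and lower for 49. Signals near the bottom of the scale inflate such folds, so they were counted again after all signals under 27.6 units, the 25th percentile, were raised to that floor. With the floor, 133 called probe sets were at least 4-fold higher and 10 were at least 4-fold lower, and at 8-fold the counts were 47 higher and 0 lower. This lean was not particular to the comparison. At 8-fold with the floor, Mo17xB73 minus Mo17 gave 79 higher and 0 lower, and B73xMo17 minus B73 gave 44 and 0. By unadjusted p, 5002 probe sets were under 0.05. The arrays of the groups did not overlap at 5898 probe sets (33.5%), with the hybrid above at 2684 (15.2%) and below at 3214 (18.2%). The median difference over all probe sets was −0.02 on the log2 scale. The count of lower probe sets fell without any 1 of the 6 arrays. It was 869 without B73 replicate 2 and 1057 to 1134 without each of the others.

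**Figure D1:**
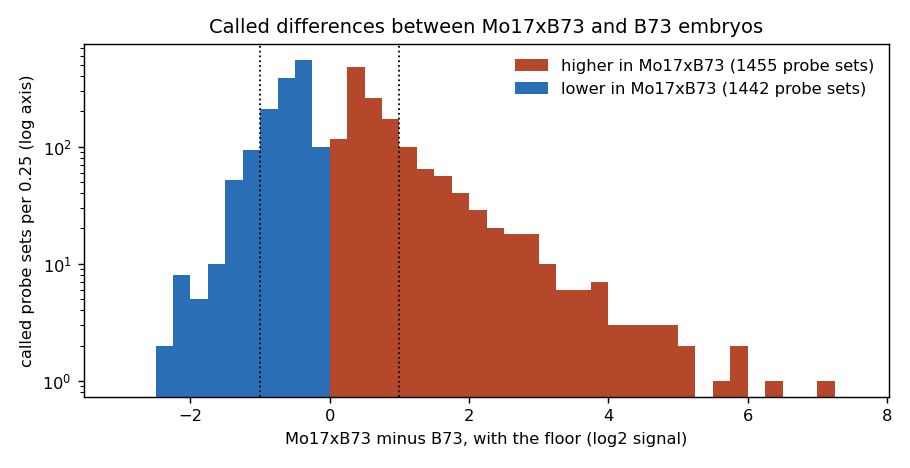
Histogram of the called differences, Mo17xB73 minus B73, in log2 signal with the floor at 27.6 signal units (x axis), with the number of probe sets per bin of 0.25 on a log axis (y axis), and dotted lines at 2-fold. The 1455 higher probe sets reach 7.11, while the 1442 lower ones end at −2.39.

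The widest gaps upward belonged to probe sets for which the annotation gives no gene. Zm.14497.4.A1_at read 11.84, 11.96 and 11.88 on the Mo17xB73 arrays, against 1.36, 1.82 and 1.68 on the B73 arrays (log2 signal). The B73 values lie below the floor, and with it the hybrid was 138-fold higher. Zm.17686.1.A1_at read 11.09, 11.07 and 10.97 in Mo17xB73, against 0.25, 0.84 and 2.11 in B73, which is 76.6-fold with the floor. Zm.16300.1.A1_at was 58.8-fold higher with the floor, at 10.66 ± 0.08 in Mo17xB73 and 3.28 ± 1.02 in B73 (mean log2 signal ± SD, n = 3 each). In all 3 the groups were far apart and B73 lay below the floor. B73xMo17 averaged 11.62, 10.98 and 10.47 for these probe sets and Mo17 averaged 12.43, 11.85 and 11.47, all far above B73. Among probe sets without a gene, the widest gaps downward were smaller. ZmAffx.178.1.A1_at averaged 4.89 ± 0.44 in Mo17xB73 and 7.33 ± 0.71 in B73 (mean log2 signal ± SD, n = 3 each). Zm.13505.1.A1_at averaged 8.17 ± 0.37 in Mo17xB73 and 10.32 ± 0.19 in B73, and Zm.9614.1.A1_at averaged 5.73 ± 0.21 in Mo17xB73 and 7.81 ± 0.35 in B73. B73xMo17 averaged 7.02, 9.57 and 7.14 for these 3, and Zm.13505.1.A1_at was itself lower in B73xMo17 than in B73 (−0.75, limma adjusted p = 0.014). Mo17xB73 was below B73xMo17 at each of them (limma adjusted p = 0.02, 0.0022 and 0.024).

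Among the 1108 genes with a name or number in the annotation, each taken at its brightest probe set, 200 were called (18.1%), of which 94 were higher in Mo17xB73 (8.48%) and 106 were lower (9.57%). These shares are the background for the gene groups that follow.

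Genes of the basal transfer layer and neighbouring endosperm regions were higher in Mo17xB73. Of 18 such genes measured, 12 rose in the hybrid, 0 fell (also 0 at an unadjusted p under 0.05, against 13 higher), and 17 had a positive difference. Their median difference, without the floor, was 1.56 on the log2 scale, against −0.01 over all 1108 genes. Dim members enter that median. With the floor rip2, incw1, incw3 and ebe1, named after their values were seen and not called, differed by 0, 0.05, 0.02 and −0.07. bap2, a gene for a small secreted protein of the transfer layer, read 10.03, 10.67 and 10.68 on the Mo17xB73 arrays, against 7.52, 8.05 and 8.46 on the B73 arrays. Every hybrid array lay above every B73 array, and the difference was 2.45 ± 0.27 (log2, SE; limma adjusted p = 3.2e-05), or 5.47-fold. bap1-b, of the same family, read 10.29, 11.04 and 10.38 in Mo17xB73, against 8.35, 8.48 and 8.31 in B73, a 4.56-fold difference (limma adjusted p = 2.8e-06). A second probe set of bap1-b gave 2.59 on the log2 scale. bap-1a read 9.70, 10.23 and 10.03 in Mo17xB73 and 7.87, 8.20 and 8.22 in B73. These 3 bap genes were thus all more than 3-fold brighter in the hybrid, with no overlap between the groups. The family was not uniform. bap-3b, named after its values were seen, did not pass the test (0.61, and 0.38 with the floor, limma adjusted p = 0.34).

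meg2, a member of the family of maternally expressed gene1, which is active in the transfer layer, read 12.07, 12.40 and 12.25 in Mo17xB73, against 9.74, 10.07 and 10.39 in B73. No array of either group came near the other group, and the hybrid was 4.50-fold above B73 (limma adjusted p = 6e-06), and its second probe set differed by 2.30. mn1, the cell wall invertase that splits incoming sucrose at the base of the endosperm, read 7.98, 8.07 and 8.37 in Mo17xB73, against 5.80, 5.18 and 6.79 in B73. Its B73 arrays spread widely but stayed below all hybrid arrays (2.22 ± 0.34, log2, SE; limma adjusted p = 0.00057). The transfer layer genes betl1 and betl4 also rose, by 1.44 and 1.68 on the log2 scale. They averaged 11.69 ± 0.31 and 8.90 ± 0.21 in Mo17xB73, against 10.26 ± 0.07 and 7.23 ± 0.18 in B73 (mean log2 signal ± SD, n = 3 each).

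esr2, a gene of the embryo surrounding region, the endosperm next to the embryo, read 8.55, 7.89 and 8.01 in Mo17xB73, against 6.72, 6.26 and 6.16 in B73, a 3.41-fold difference (limma adjusted p = 0.0042). betl3, named here after its values were seen, rose by 0.98 ± 0.18 (log2, SE). Also named afterwards, bap-3a, ESR1c1 and ebe2 passed the test with hybrid means near the floor, at 4.72, 4.95 and 4.70. Their B73 means lay well below it, at 1.20, 2.45 and 3.32, and with the floor their differences shrank to 0.05, 0.17 and 0.09. meg6 did not pass the test, at 11.72 ± 0.07 in Mo17xB73 and 11.56 ± 0.07 in B73 (mean log2 signal ± SD, n = 3 each; limma adjusted p = 0.079).

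**Figure D2:**
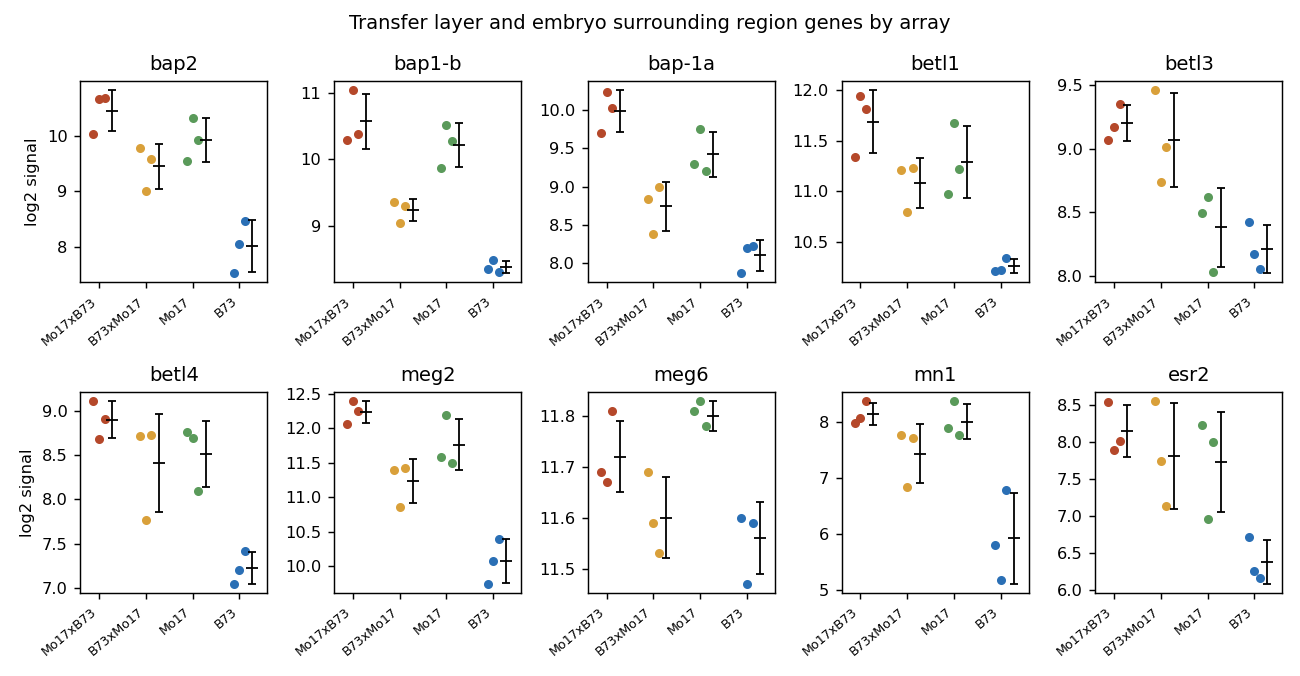
Log2 signal (y axis, a separate range in each panel) of 10 transfer layer and embryo surrounding region genes on each array, by group (x axis). bap-3a, bap-3b and ESR1c1 are not drawn. Coloured points are the 3 arrays in order of replicate number, and the black mark and bar are mean ± SD; in all 10 panels each Mo17xB73 array lies above each B73 array, although meg6 did not pass the test.

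The summed signal of the tissue's markers was read on every array. The 11 transfer layer markers summed to 14724, 17567 and 18832 on the Mo17xB73 arrays (lowest, median and highest, normalized signal units), against 6448, 6521 and 7270 on the B73 arrays. The lowest hybrid sum was above the highest B73 sum by a wide margin. Of the 11 markers 9 were called higher and 0 lower, and those were described above. Their sums restate these differences and are no separate evidence. The same sums were 8885, 11230 and 11790 in B73xMo17 and 12027, 12393 and 16373 in Mo17. The 2 embryo surrounding region markers, both also called higher above, summed to 272, 285 and 406 in Mo17xB73 and to 78, 84 and 115 in B73. The sums of 12 starchy endosperm markers overlapped, at 63557, 68738 and 70330 in Mo17xB73 and 69260, 70704 and 75182 in B73. These sums include dzs18, which averaged 11.53 in Mo17xB73 and 13.59 in B73 (log2 signal), and a sum without it was not read. Of the 12 markers, 2 were called higher in Mo17xB73 and 2 lower. The 8 embryo markers summed to 43911, 47072 and 48659 in Mo17xB73 and to 37413, 38233 and 41022 in B73, with no overlap. Only 1 of the 8 was called higher, glb2, at 13.10 in Mo17xB73 and 11.53 in B73 (mean log2 signal), and 1 was called lower. The part of tissue carried along at dissection in the transfer layer differences was not tested.

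Zeins, the storage proteins of the starchy endosperm, gave a mixed picture with a median near 0. Of 8 zein genes, 2 rose in Mo17xB73, 1 fell and 5 did not pass the test, with a median difference of 0.09. Several zeins, like the embryo genes glb1 and ole1, lay near the top of the scale, where the highest normalized value was 14 (log2 signal). Whether signals that high still follow the amount of transcript was not tested. dzs18, a delta zein rich in methionine, read 11.34, 11.50 and 11.76 on the Mo17xB73 arrays, against 13.53, 13.64 and 13.61 on the B73 arrays. It was 4.18-fold lower in the hybrid (−2.06 ± 0.10, log2, SE; limma adjusted p = 9.7e-09). B73xMo17 averaged 13.64 ± 0.06, close to B73, and Mo17 averaged 6.55 ± 0.17 (SD, n = 3 each). The hybrid with the Mo17 seed parent was therefore 2.11 below its reciprocal on the log2 scale (limma adjusted p = 2.9e-07). The 3 other probe sets of dzs18 differed between Mo17xB73 and B73 by −2.39, −2.13 and −2.03, and the one at −2.13 did not pass the test (limma adjusted p = 0.09).

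z1C1_12, an alpha zein, went the other way. It read 11.42, 11.37 and 11.65 in Mo17xB73, against 10.96, 10.18 and 10.44 in B73, and every hybrid array was above every B73 array (0.95 ± 0.19, log2, SE; limma adjusted p = 0.0037). Mo17xB73 was above B73xMo17 by 1.69 (limma adjusted p = 0.0014) and above Mo17 by 1.22, which made it the brightest of the 4 groups. z1D_2, another alpha zein, was 0.34 higher in Mo17xB73, a call lost without Mo17xB73 replicate 1 (0.27, limma adjusted p = 0.062). Zein genes are near-identical copies, so signals of single alpha zein probe sets can be shared among them. Of 4 regulators of storage protein genes, 2 fell in Mo17xB73. o2, the bZIP factor Opaque2, averaged 7.91 ± 0.46 in Mo17xB73 and 8.86 ± 0.26 in B73, and ohp1, its partner protein, averaged 9.34 ± 0.13 in Mo17xB73 and 9.97 ± 0.15 in B73 (mean log2 signal ± SD, n = 3 each). The call of o2 was lost without any 1 of 4 arrays, with a difference of −0.80 and a limma adjusted p of 0.06 without Mo17xB73 replicate 2. A second probe set of o2 did not pass the test (−0.33, limma adjusted p = 0.65). ohp2 differed by 0.01 and pbf1, another activator of zein genes, by −0.10.

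Embryo storage and late embryogenesis genes were mostly level, with 1 of 9 higher and 1 lower and a median of 0.04. glb2, a globulin stored in the embryo, read 13.16, 12.94 and 13.20 in Mo17xB73, against 11.77, 11.22 and 11.59 in B73. The hybrid arrays were all above B73, by 2.96-fold (limma adjusted p = 1.3e-06), and B73xMo17 at 12.92 and Mo17 at 12.80 lay with the hybrid. B73 was thus the low group of the 4. glb3, also a globulin, was lower, at 11.51 ± 0.19 in Mo17xB73 and 12.04 ± 0.19 in B73 (mean log2 signal ± SD, n = 3 each; limma adjusted p = 0.023). Without B73 replicate 2 the call of glb3 was lost (−0.45, limma adjusted p = 0.1).

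In starch synthesis and sucrose cleavage, 1 of 16 genes rose and 1 fell, sbe1 (a starch branching enzyme, 0.33) and sus2 (a sucrose synthase, −0.32). Both calls were lost without some single arrays, to limma adjusted p = 0.11 for sbe1 without Mo17xB73 replicate 3 and 0.14 for sus2 without B73 replicate 2. In glycolysis and fermentation 2 of 13 genes fell. pdc1, pyruvate decarboxylase, read 7.68, 8.01 and 7.76 in Mo17xB73, against 9.61, 9.99 and 10.32 in B73, a 4.45-fold difference with no overlap (limma adjusted p = 0.0003). A dimmer second probe set of pdc1 did not show it (0.12, limma adjusted p = 0.89). adh2, an alcohol dehydrogenase, fell by 0.30 in the hybrid on the log2 scale (limma adjusted p = 0.019, and 0.075 without B73 replicate 2).

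pep7, a gene for phosphoenolpyruvate carboxylase, had the widest gap of any named gene once the floor was set. It read 10.38, 10.47 and 10.51 on the Mo17xB73 arrays, against 7.30, 7.52 and 7.09 on the B73 arrays. The hybrid arrays lay close together and 8.87-fold above B73 (3.15 ± 0.09, log2, SE; limma adjusted p = 6.3e-11). B73xMo17 averaged 10.54 and Mo17 averaged 10.73. obf3.2, a bZIP transcription factor gene, was 3.62-fold higher, at 10.31, 10.53 and 10.40 in Mo17xB73 and at 8.58, 8.73 and 8.36 in B73. Its second probe set read 10.02, 9.90 and 10.14 in Mo17xB73 and 9.89, 9.80 and 9.96 in B73, and did not pass the test (0.14, limma adjusted p = 0.3). Where 2 probe sets of a gene disagree, as here and for pdc1, o2 and LOC732784, the difference depends on the probe set read. Whether the probes match the alleles of both lines equally well was not tested.

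Stress and redox genes moved singly and in both directions. Of 12 heat shock and chaperone genes, 1 rose and 1 fell. hsp101, a chaperone that pulls apart protein aggregates, read 11.33, 10.29 and 10.61 in Mo17xB73, against 8.31, 8.59 and 8.66 in B73, a 4.67-fold difference (limma adjusted p = 1.2e-05). The small heat shock gene hsp18a went down, at 8.53 ± 0.43 in Mo17xB73 and 9.95 ± 0.03 in B73 (mean log2 signal ± SD, n = 3 each). Sod4A, a superoxide dismutase, averaged 11.28 ± 0.09 in Mo17xB73 and 12.25 ± 0.11 in B73 (SD, n = 3 each), and apx2, an ascorbate peroxidase, was 0.46 higher, the only members called of 13 peroxidases, catalases and dismutases. Among 31 glutathione transferases, which attach glutathione to toxic compounds, 3 rose (GST38 by 0.67, gst5 by 0.55 and gst17 by 0.21) and gst6 fell by 0.72 on the log2 scale. The calls of apx2 and gst17 were lost without some single arrays, to limma adjusted p = 0.13 for apx2 without B73 replicate 1 and 0.16 for gst17 without Mo17xB73 replicate 3.

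**Figure D3:**
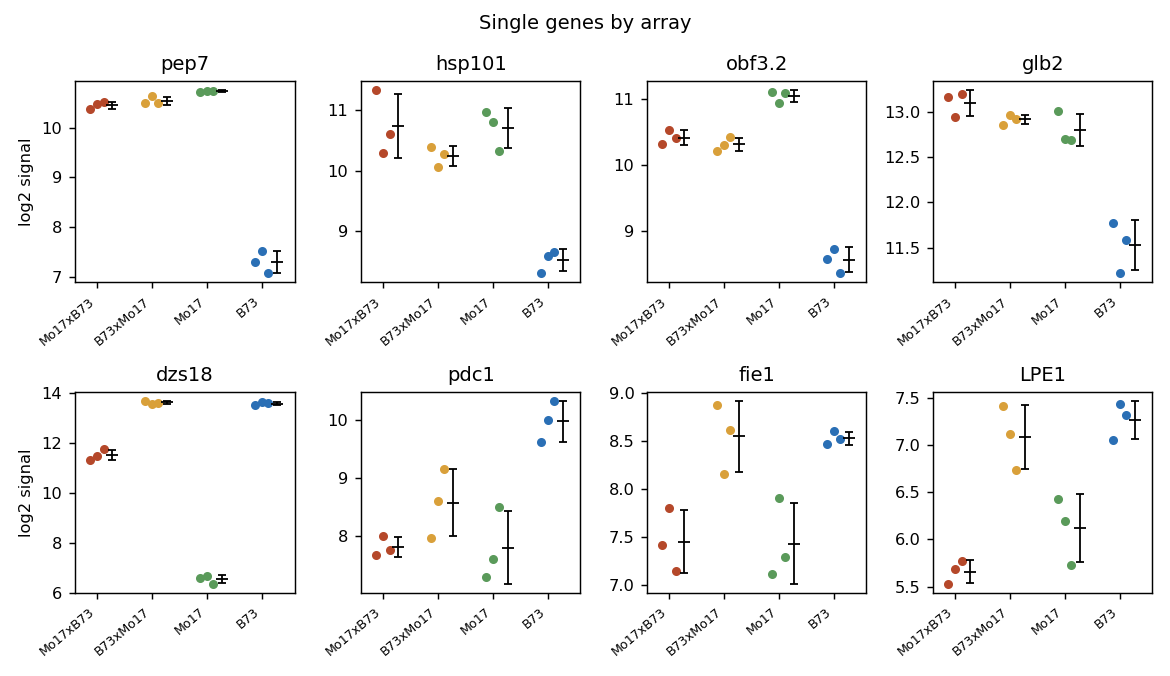
Log2 signal (y axis, a separate range in each panel) of 8 genes on each array, by group (x axis), with mean ± SD in black (n = 3). The Mo17xB73 arrays lie above all B73 arrays for pep7, hsp101, obf3.2 and glb2 and below all of them for dzs18, pdc1, fie1 and LPE1.

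Oxylipin genes, which make jasmonic acid and related signals from fatty acids, gave 3 higher and 1 lower of 9, with a median of 0.37. opr1, an oxophytodienoate reductase, read 7.25, 7.49 and 7.79 in Mo17xB73, against 5.53, 6.12 and 5.86 in B73 (3.18-fold; limma adjusted p = 9.6e-05). aos1, an allene oxide synthase, read 10.73, 10.65 and 10.59 in Mo17xB73 and 10.21, 10.14 and 10.18 in B73, a small gap that was wide beside the spread of either group (limma adjusted p = 0.00036). lox3, a lipoxygenase, differed by 0.37 and opr7, another reductase, by −0.78 on the log2 scale. In this list 4 genes were higher in Mo17xB73 than in B73xMo17, while over all 1108 genes 16 were (1.44%). These were opr1 by 0.99 and aos1 by 0.47, and, named after their values were seen, lox1 by 1.93 and opr5 by 1.23. The call of lox3 was lost without Mo17xB73 replicate 3 (0.32, limma adjusted p = 0.075), among other arrays. lox1 was dim, near or below the floor in both hybrids.

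Of 4 genes of benzoxazinoid synthesis and cytochrome P450s, bx6 (an oxygenase in the making of benzoxazinoid defence compounds) rose by 0.63 and d3 (a cytochrome P450 of gibberellin synthesis) by 0.76, while igl1, an indole-releasing lyase, fell by 0.53 on the log2 scale. In flavonoid and lignin synthesis, 1 of 6 rose and 1 fell. fht1, flavanone 3-hydroxylase, read 5.43, 6.22 and 6.38 in Mo17xB73 and 7.69, 7.72 and 7.62 in B73, and BM1 was 0.50 higher. Among defence proteins, lox3 was the only one of 7 called. Of 28 aquaporins, the membrane water channels, 2 rose (tip2a and sbip1b) and 3 fell. pip2-5, of the plasma membrane, fell the furthest, to 7.26, 7.37 and 7.59 in Mo17xB73, against 8.82, 9.13 and 9.00 in B73 (2.98-fold; limma adjusted p = 2.3e-05). Of 12 cellulose synthase genes 3 rose, by 0.45 (cesa7), 0.41 (cesa2) and 0.40 (CesA-1), and 0 fell (4 higher and 0 lower at an unadjusted p under 0.05 in limma). Several of these small calls were lost without 1 array, with limma adjusted p of 0.09 for d3, 0.1 for CesA-1 and 0.058 for sbip1b without Mo17xB73 replicate 3, 0.11 for BM1 without B73 replicate 2, and 0.16 for cesa7 and 0.15 for tip2a without Mo17xB73 replicate 1. The aquaporins called were then 2 without Mo17xB73 replicate 3.

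Of 16 DNA replication and cell cycle genes 0 passed limma's test, with 1 higher and 0 lower at an unadjusted p under 0.05, and a median of −0.06. Of 18 cytosolic ribosomal protein genes, rpl39 rose by 0.41 and rpl30 and rpl29 had differences of −0.74 and −0.34. rpl39 was also called at its second probe set, by 0.87. Of 16 photosynthesis genes FDX6, a ferredoxin, was higher by 0.49, and of 4 histone genes his2b5 had a difference of −0.43. Without Mo17xB73 replicate 2 the calls of rpl29 and his2b5 were lost (limma adjusted p = 0.058 and 0.11). Of 4 lipid synthesis genes and 5 plastid sigma factor genes 0 passed limma's test, with 0 lipid genes and 1 sigma factor gene at an unadjusted p under 0.05.

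Of 59 homeobox, MYB, YABBY and MADS genes, 3 rose and 6 fell in Mo17xB73, with a median of −0.10. Over all 1108 genes the shares were 8.48% higher and 9.57% lower, so these counts lie near the background. yab14, a YABBY factor gene of a family that acts in lateral organs, read 8.97, 8.90 and 8.35 in Mo17xB73, against 7.07, 6.83 and 7.28 in B73 (3.22-fold; limma adjusted p = 1.6e-05). Its relative yabby15 went down, at 8.51 ± 0.07 in Mo17xB73 and 9.11 ± 0.17 in B73 (SD, n = 3 each). rs2, rough sheath2, a MYB factor that holds down knox genes in leaves, averaged 8.53 ± 0.31 in Mo17xB73 and 9.36 ± 0.22 in B73, and LOB21, of the LOB domain family, averaged 6.10 ± 0.20 in Mo17xB73 and 7.83 ± 0.03 in B73 (SD, n = 3 each). LOB21 was lowest in Mo17, at 0.84.

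Of 59 genes of chromatin and DNA modification, 10 were lower in Mo17xB73 and 1 was higher, with a median of −0.05. Over all 1108 genes 18.1% were called, 8.48% higher and 9.57% lower. The 11 calls in this list thus lie near the background in number, and most were lower. fie1, a Polycomb group gene whose maize endosperm transcript is known to come from the maternal allele, read 7.41, 7.80 and 7.14 in Mo17xB73, against 8.47, 8.61 and 8.52 in B73. No hybrid array reached the B73 range, and the difference was −1.09 ± 0.22 (log2, SE; limma adjusted p = 0.0046). B73xMo17 averaged 8.55 and Mo17 averaged 7.43, so each hybrid's mean lay close to that of its seed parent, and Mo17xB73 was 1.10 below B73xMo17 on the log2 scale (limma adjusted p = 0.039). The other differences in the list were small. The SET domain gene sdg118, the histone acetyltransferase gene hac108 and the histone deacetylase gene hda102 differed by −0.40, −0.40 and −0.39. ada2, of a histone acetyltransferase complex, differed by −0.37 and vef101, a Polycomb group gene, by −0.32. gte102, a bromodomain gene named after its value was seen, was the 1 higher gene, by 0.26. The count fell without each single array of the comparison. It was 6, 4 and 6 of the 59 without B73 replicates 1, 2 and 3. Without Mo17xB73 replicates 1, 2 and 3 it was 5, 9 and 7. hda102 was not called without B73 replicate 2 (limma adjusted p = 0.07), and vef101 was lost without B73 replicate 1 (limma adjusted p = 0.097). On the scale of the deposited values 1 was called.

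**Figure D4:**
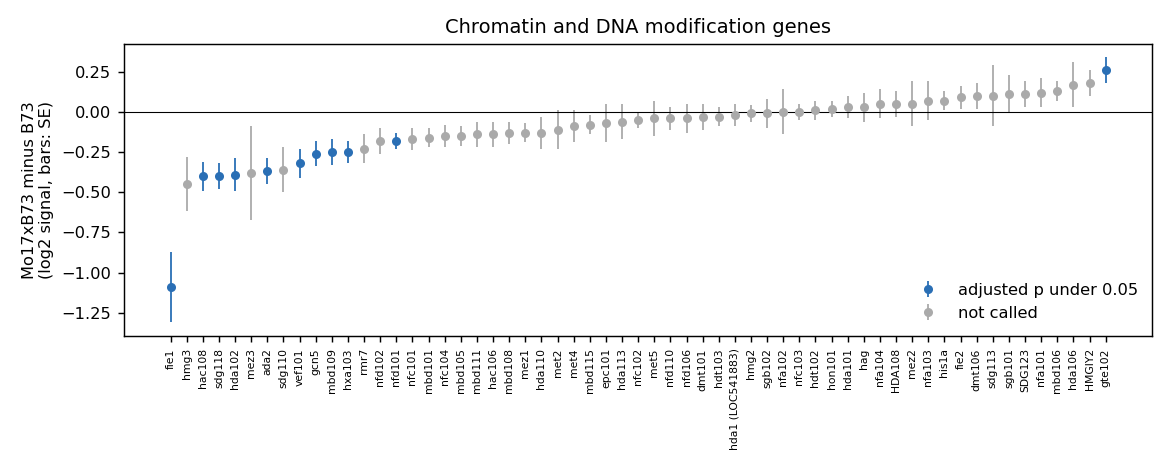
Mo17xB73 minus B73 in log2 signal (y axis, with limma's standard error) for the 59 chromatin and DNA modification genes (x axis, from lowest to highest). Blue marks an adjusted p under 0.05: fie1 lies at −1.09, the 9 other lower genes lie between −0.40 and −0.18, and gte102 lies at 0.26.

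The remaining genes of the 15 with the largest differences in each direction had the following values. TUBB2, a beta tubulin, read 8.73, 8.96 and 9.04 in Mo17xB73 and 7.13, 7.43 and 7.69 in B73, and Mo17 was higher still, at 9.93. LPE1, leaf permease1, read 5.53, 5.69 and 5.77 in Mo17xB73, against 7.06, 7.44 and 7.32 in B73. As for fie1, the mean of LPE1 in B73xMo17 was close to that of B73, at 7.09, and Mo17xB73 was below that reciprocal hybrid (−1.43, limma adjusted p = 0.0095). gln5, a glutamine synthetase, averaged 7.52 ± 0.18 in Mo17xB73 and 8.77 ± 0.31 in B73. The glycine-rich protein gene grp3 averaged 7.93 ± 0.10 in Mo17xB73 and 9.19 ± 0.07 in B73. These falls were between 2-fold and 3-fold, with no overlap of arrays. A calmodulin gene differed by −1.39, and its second, dim probe set did not pass the test (−0.94, limma adjusted p = 0.3). The aldehyde dehydrogenase gene aldh5 differed by −1.11. The genes listed as gss1, piip2, LOC541918 and LOC732784 differed by −1.40, −1.26, −2.11 and −1.44, and second probe sets of the last 2 did not pass the test (limma adjusted p = 0.21 and 0.87). The call of piip2 was lost without Mo17xB73 replicate 2 (limma adjusted p = 0.15).

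Whether Mo17xB73 differed from its reciprocal, which has the same nuclear genomes, was a separate comparison. Only 153 of 17621 probe sets were called between Mo17xB73 and B73xMo17 (0.868%), 89 higher and 64 lower in Mo17xB73, against 2877 between Mo17xB73 and Mo17 (16.3%). Without Mo17xB73 replicate 3 the first count was 51. Among the 1108 genes 26 were called (2.35%). In the transfer layer group 3 of 18 genes were called, bap-1a, bap1-b and meg2, which were 1.25, 1.33 and 1.00 higher in Mo17xB73. For each, B73xMo17 lay between the hybrid and B73, at 8.74, 9.24 and 11.23. The glutathione transferase gst30 was 1.55 higher in Mo17xB73 than in B73xMo17, sfp1 was 1.63 higher, aprl1 was 0.87 higher and hmt1, a homocysteine methyltransferase gene, was 0.93 higher (limma adjusted p between 0.0019 and 0.015). Of these 4, aprl1 alone also differed between Mo17xB73 and B73 (0.54, limma adjusted p = 0.021, and 0.091 without Mo17xB73 replicate 3).

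A second pair of groups has the same exchange of a B73 for a Mo17 seed parent, with Mo17 instead of B73 as the pollen parent. Mo17 minus B73xMo17 uses 6 other arrays. Both pairs also exchange 1 B73 genome of the embryo for 1 Mo17 genome. A gene whose level in both hybrids lies between the inbreds therefore has the same sign in both pairs. The inbreds themselves differed at 6321 of 17621 probe sets (limma adjusted p under 0.05). Shared signs thus cannot tell the seed parent apart from the genome exchanged. Of the 2897 probe sets called between Mo17xB73 and B73, 94% had the same sign in Mo17 minus B73xMo17 and 63.5% were called there in the same direction, while 21 were called in the opposite direction. Over all 17621 probe sets 68.6% had the same sign, 20.5% were called there with the same sign and 22.3% were called there in either direction. The sizes differed by direction. For the 520 probe sets at least 2-fold higher in Mo17xB73 the median difference was 1.90 against B73, and 0.81 for Mo17 against B73xMo17. For the 233 at least 2-fold lower, the medians were −1.30 and −1.69. These 753 were picked for their size in the first pair, which by itself pulls the first medians outward.

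Sets picked in the second pair instead, and read in the first, avoid that pull on the medians. The shares called are not freed in the same way. The sets had to be called in the second pair, and both tests use the same estimate of spread for each probe set. Mo17 was at least 8-fold below B73xMo17, with the floor, at 90 probe sets. At these, the median of Mo17xB73 minus B73 was −0.87 with quartiles of −1.06 and −0.68, all 90 were below 0, and 58 were called lower (64.4%, against 8.18% over all probe sets). The median levels were 9.22 in Mo17xB73 and 10.0 in B73. For the 211 probe sets at 4-fold or more the median was −0.89 and for the 631 at 2-fold or more it was −0.74. Where Mo17 was at least 2-fold above B73xMo17, at 242 probe sets, the median of Mo17xB73 minus B73 was 1.03, and 153 were called higher and 0 lower. As a scale for the eye and not as a test, a gene read from the B73 allele alone, at 1 copy in Mo17xB73 against 2 in B73, would give −1 by arithmetic. These copies are those of embryo cells and differ in endosperm, whose genes also gave strong signals here. No allele was measured, and a cause in allele copies was not tested.

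**Figure D5:**
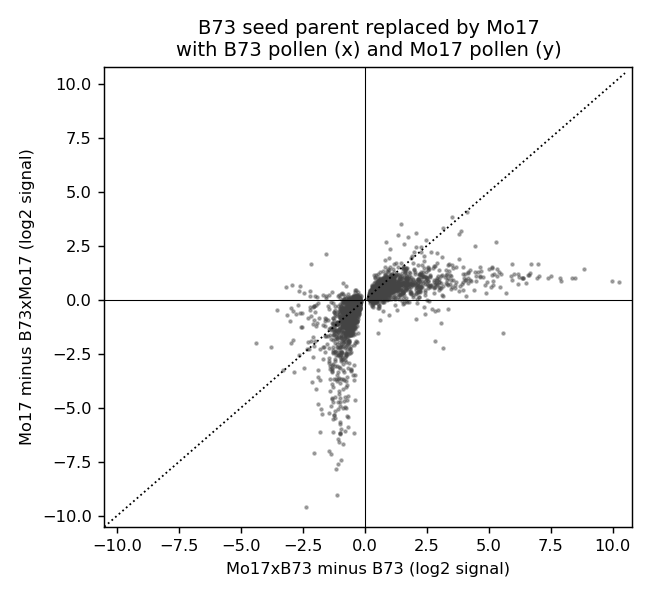
Mo17xB73 minus B73 (x axis) against Mo17 minus B73xMo17 (y axis), both in log2 signal, for the 2897 probe sets called in the first; the dotted line marks equal differences and the axes cross at 0. Points spread far to the right at small positive y and far down at x near −1, and 94% share a sign.

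The difference between these 2 differences was tested for each probe set, and 881 of 17621 were called (5%), 763 positive and 118 negative. On the log scale this difference is above 0 by arithmetic where the inbreds differ and 2 alleles' outputs simply add in both hybrids. Neither a call nor its positive sign therefore marks a departure from addition by itself. Among the 1108 genes 55 were called (4.96%), and in the transfer layer group 8 of 18 were. bap2 was 2.45 higher in Mo17xB73 than in B73, and 0.48 higher in Mo17 than in B73xMo17. glb2 was 1.57 higher in Mo17xB73 than in B73, and Mo17 was −0.12 from B73xMo17. pep7 had 3.15 in the first pair and 0.18 in the second, since all 3 groups that carry a Mo17 genome were near the same level. dzs18 had −2.06 in the first pair and −7.09 in the second, with Mo17 the low group.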

How the data were processed

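Embryo RNA of 4 genotypes was measured on 12 arrays. The deposited values are linear intensity signals per probe set, made with MAS5 per the submitters' processing notes, with no version given and no normalization between arrays recorded in the sources used here. Detection calls were not used. The 113 control probe sets were left out. Quantile normalization of log2 signals removes any overall difference in brightness between genotypes. Group means over 12 arrays were fitted with limma 3.58.1 in R 4.3.3 (lmFit, eBayes with an intensity trend, 8 residual degrees of freedom), with two-sided p-values adjusted by the Benjamini-Hochberg method over 17621 probe sets at 0.05. The fit was tested on simulated data. No filter on dim probe sets was set, and the floor was used for sizes only. With 3 arrays a group, their number limits the precision.

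The platform annotation gave 1 gene for 1452 probe sets, several for 1 and none for 16168. Of the 1108 genes, 1060 had their gene ID in the RefSeq table of Zm-B73-REFERENCE-NAM-5.0, used for names only. The members, 23 gene lists and the naming rule were chosen with earlier results of these data known, so no list was tested. Lists were matched on gene symbols, and 43 genes that plainly belonged elsewhere were removed before values were read. Named were the 15 genes with the largest differences with the floor in each direction among those called with no overlap of arrays, up to 6 called members of each list, 3 unnamed probe sets in each direction, and up to 10 genes by adjusted p in each of the reciprocal comparison and the difference of differences.

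Replicate numbers pair the samples, since the labels give each number 1 collection date. Deviations from the group means correlated weakly between the Mo17xB73 and B73 arrays of 1 date, at 0.045, 0.015 and 0.032. Alternatives were median centring, the values as deposited, the floor in the test, a filter on dim probe sets, no intensity trend, the replicate block, the 6 arrays alone, and leaving out each array.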

Additional observations from a re-analysis of the deposited data

Results flagged for a closer look

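The effect of exchanging a B73 for a Mo17 seed parent differed between B73 pollen (Mo17xB73 minus B73) and Mo17 pollen (Mo17 minus B73xMo17) for 31 of the 87 genes and probe sets named, by limma's test of the difference itself. Up to 10 of the 87 were named for their adjusted p in this very test, and many for their size in the first difference. The share of 31 is therefore raised by the naming. Over all probe sets 881 of 17621 were called (5%), and among the 1108 genes 55 were (4.96%). The excess of the first over the second was positive for 29, the sign that simple addition of 2 alleles' outputs gives on the log scale. Over all probe sets it was positive for 763 of the 881 called. It was widest for probe sets low in 1 inbred: Zm.14497.4.A1_at (9.47), Zm.17686.1.A1_at (9.11) and Zm.16300.1.A1_at (6.38), low in B73, and HRGP (9.02), his2b5 (5.73), dzs18 (5.02) and LOB21 (3.55), low in Mo17. Further values were 2.97 for pep7, 2.78 for piip2, 2.38 for HMT-2, 2.25 for gss1, 2.12 for CesA-4 and 1.80 for o2. In the transfer layer it was 1.97 for bap2, 1.65 for meg2, 1.57 for betl4, 1.23 for betl1, 1.21 for bap-1a and 1.20 for bap1-b. It was 1.77 for hsp101, 1.69 for glb2, 1.40 for hsp18a, 1.37 for nip3a, 1.13 for obf3.2, 1.10 for abp4, 0.98 for glb3, 0.71 for ohp1, 0.67 for sus2 and 0.54 for z1D_2. It was negative for gst30 (−1.40) and sfp1 (−1.43).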

How the results depend on the processing

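Of the 82 named genes and probe sets called between Mo17xB73 and B73, 80 kept their call with the replicate block, 76 under median centring, 71 with the floor, 67 without the intensity trend and 49 with the values as deposited. gst17 and piip2 lost it under the block, which pairs samples by collection date and called 3148 probe sets. It changed no other call of the named ones. Median centring called 2738 probe sets, 1200 of them higher. The values as deposited shift the median of all probe sets to −0.17 in Mo17xB73 minus B73. With the values as deposited, 828 probe sets were called (460 higher, 368 lower), with 33 list members, 1 glutathione transferase, 2 oxylipin genes, 4 homeobox, MYB, YABBY and MADS genes and 1 chromatin gene. That setting also gave 42 calls against B73xMo17, 896 against Mo17, 1225 for Mo17 against B73xMo17 and 435 for the difference of differences. With the floor the count against B73xMo17 was 76. Without the trend it was 39, with 3 aquaporins and 7 chromatin genes. With the 6 arrays alone 6 chromatin genes were called. hmt1, not called, changed sign, to −0.016 under median centring, −0.149 as deposited, and −0.078 and −0.022 without Mo17xB73 replicate 2 and without B73 replicate 3. The causes were not tested.

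Leaving out 1 array at a time kept 59 of the 82 calls throughout and gave 1968 to 3010 called probe sets, 1099 to 1473 higher and 869 to 1537 lower, the lowest each without B73 replicate 2. Called list members ranged over 45 to 79, aquaporins over 2 to 5 and chromatin genes over 4 to 11. Calls against B73xMo17 ranged over 51 (without Mo17xB73 replicate 3) to 144, and hmt1 over −0.078 to 0.11. The transfer layer calls numbered 9 of 18 after the filter on dim probe sets, which removes members, and 10 to 12 under the other alternatives run.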
